A study of Mus musculus with 16 samples.

Results

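Sox and T-box genes encode developmental transcription factors, and their coverage by H3K27me3 was read from the peak lists of 8 libraries of mouse breast tumour cells. The 32 genes were chosen by name, as 18 autosomal Sox genes and 14 autosomal T-box genes among 21631 protein-coding genes (autosomes and chromosome X), and all matched the annotation of build mm10 (GRCm38.p6). A gene was counted as marked in a library when at least 1 base of a peak overlapped its annotated body extended by 2 kb at both ends, here called its window. The same count over the 21599 other protein-coding genes served as background. The cells are a line labelled CCN6KOT, from a spindle metaplastic breast tumour with knockout of CCN6, and both groups carry this knockout. Puromycin-selected cells held a lentivirus with dnTCF4, a dominant negative form of the factor through which beta-catenin activates genes, or a control lentivirus (PPGS in the titles), although the series' design text calls the comparison cells parental. Each group had 4 libraries, numbered 1 to 4, and the labels do not tell whether separate cultures were used, so a p-value here reflects only how much the libraries vary, possibly for technical reasons. The labels name 1 cell line and neither its number of clones nor how strongly dnTCF4 was expressed. The labels give no age, sex or strain of the animals, and 8 IgG samples were not analysed here.

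H3K27me3 is written by Polycomb repressive complex 2 (PRC2), whose catalytic subunit is EZH2, and it lies over silent developmental regulators, often as broad domains around CpG-rich promoters. SOX proteins bind DNA through an HMG box, the same kind of domain that TCF and LEF factors use, and they set cell identity in the nervous system, neural crest, cartilage, blood vessels and epithelia. T-box proteins pattern mesoderm, heart and limbs, and some of them direct lymphocyte, pituitary or cortical neuron fates. In the mammary gland Tbx3 is needed for the earliest placodes, and Sox9 and Sox10 are known from its stem and progenitor cells.

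The promoters below show which promoters lay under a peak and which did not at these genes. Of 32 members, 23 matched a RefSeq promoter table (GRCm38.p6), with 29 promoters of 300 bases that run from 250 bases before the annotated start to 50 after it. Sox7, Sox9, Sox10, Sox17, Sox18, Tbx2, Tbx3, Tbx5 and Tbx15 had no entry. Peaks reached 2 of the 29 promoters, that of Tbx19 (chr1:165160724-165161023, minus strand, 147 bases under a peak in control 3) and that of Sox6 (chr7:116038695-116038994, minus strand, 270 bases under a peak in dnTCF4 1). Both peaks ranked low in their lists by the −log10 q of the authors' peak caller. It was 1.23 at Tbx19 and 1.05 at Sox6, against medians of 1.42 in control 3 and 1.35 in dnTCF4 1. Further promoters with no peak over them are given for contrast. They belong to Sox13 (chr1:133424163-133424462, minus strand), whose window was marked in 4 libraries, and to Sox2 (chr3:34649745-34650044, plus strand) and Eomes (chr9:118477939-118478238, plus strand), which were marked in none. Sox13 was added to this set after its values were seen. Sequences run 5′ to 3′ along the gene, and capitals mark each CG dinucleotide, the site that defines CpG islands.
Tbx19: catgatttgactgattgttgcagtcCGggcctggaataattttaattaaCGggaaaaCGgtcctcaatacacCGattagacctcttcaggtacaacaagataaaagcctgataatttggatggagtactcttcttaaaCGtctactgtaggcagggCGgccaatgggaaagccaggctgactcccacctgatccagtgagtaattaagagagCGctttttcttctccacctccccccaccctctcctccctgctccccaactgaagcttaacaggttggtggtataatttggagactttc
Sox6: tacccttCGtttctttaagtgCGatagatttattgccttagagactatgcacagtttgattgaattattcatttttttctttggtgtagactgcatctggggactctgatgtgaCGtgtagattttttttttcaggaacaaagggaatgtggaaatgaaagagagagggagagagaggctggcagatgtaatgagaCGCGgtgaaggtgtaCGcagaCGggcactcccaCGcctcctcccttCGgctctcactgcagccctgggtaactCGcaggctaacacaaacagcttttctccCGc
Sox13: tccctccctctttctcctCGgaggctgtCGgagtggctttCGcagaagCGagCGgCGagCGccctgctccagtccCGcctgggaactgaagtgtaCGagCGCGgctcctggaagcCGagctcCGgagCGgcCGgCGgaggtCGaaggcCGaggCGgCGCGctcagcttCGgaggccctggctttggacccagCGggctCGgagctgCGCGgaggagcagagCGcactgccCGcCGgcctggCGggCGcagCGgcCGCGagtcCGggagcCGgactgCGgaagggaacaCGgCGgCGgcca
Sox2: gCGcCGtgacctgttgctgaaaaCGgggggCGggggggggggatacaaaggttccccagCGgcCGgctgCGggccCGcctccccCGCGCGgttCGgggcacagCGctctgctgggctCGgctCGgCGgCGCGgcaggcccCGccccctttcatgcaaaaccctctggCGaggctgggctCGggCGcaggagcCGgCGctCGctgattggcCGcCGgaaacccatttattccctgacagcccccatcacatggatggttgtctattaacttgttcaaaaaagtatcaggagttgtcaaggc
Eomes: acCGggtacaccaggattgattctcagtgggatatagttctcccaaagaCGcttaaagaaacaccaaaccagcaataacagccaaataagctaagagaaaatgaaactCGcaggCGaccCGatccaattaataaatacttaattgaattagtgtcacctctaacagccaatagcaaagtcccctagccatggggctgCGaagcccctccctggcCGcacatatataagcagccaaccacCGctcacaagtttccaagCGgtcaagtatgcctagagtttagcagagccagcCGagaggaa

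The covered promoters held 7 (Tbx19) and 11 (Sox6) CG dinucleotides, and the uncovered promoters shown held 40 (Sox13), 27 (Sox2) and 10 (Eomes). This contrast is one of chosen examples, since other uncovered member promoters held as few or fewer, such as those of Sox5 with 3, Tbx10 with 4, Sox15 with 5 and Tbr1 and Tbx6 with 7 each.

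Sox and T-box genes had peaks more often than other genes in the 5 longer peak lists, and none of them had a peak in the 3 shortest. In control 3, the longest list with 54070 peaks, 18 of 32 were marked (56.2%), against 20.0% of other protein-coding genes. Control 4 (22745 peaks) marked 11 (34.4%), against 12.4%. In dnTCF4 1 (21492 peaks) 14 were marked (43.8%), against 13.6%. The lists of dnTCF4 3 (4885 peaks) and dnTCF4 4 (1838 peaks) marked 3 and 2 members, against 5.12% and 2.40% of other genes. Control 1, control 2 and dnTCF4 2, with 426, 738 and 191 peaks, marked 0 members, where 0.676%, 1.06% and 0.255% of other genes were marked. Sequencing depth is unknown, so a gene without a peak may still carry the mark. Windows of the members were shorter than those of other genes, with medians of 12.9 and 21.3 kb.

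**Figure D1:**
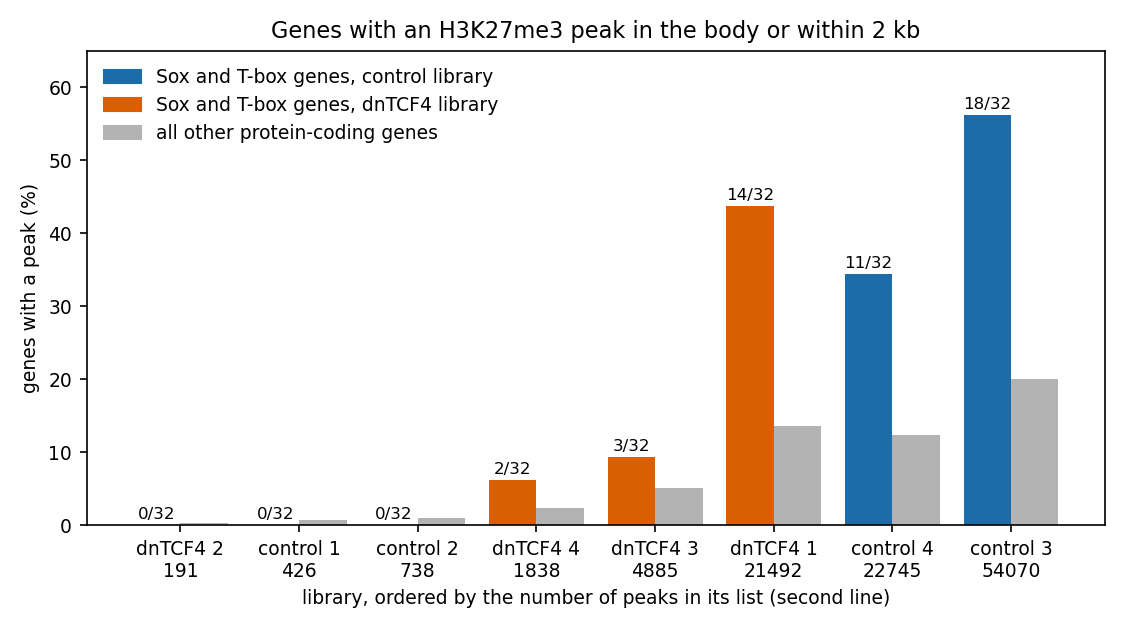
Share of genes with an H3K27me3 peak in the gene body or within 2 kb (vertical axis, percent) in each library, ordered by the number of peaks in its list. Blue and orange bars are the 32 Sox and T-box genes in control and dnTCF4 libraries, with the count of marked genes above each bar, and grey bars are all other protein-coding genes; the share of the 32 genes is above the grey bar from 1838 peaks upward and is 0 in the 3 shortest lists.

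Over all 8 libraries, 19 of 32 members were marked at least once (59.4%), against 21.3% of other genes. T-box genes made up 11 of these from 14, and Sox genes 8 from 18. This split does not account for window length. Of other genes, 13.3% with windows under 10 kb were marked at least once, and 38.7% of those with windows of at least 100 kb. The members marked in control 3 alone were 5, Sox30, Tbx2, Tbx10, Tbx18 and Tbx20. Another 3 were marked in control 3 and dnTCF4 1 (Sox8, Sox11 and Sox14), and Tbr1 in control 4 and dnTCF4 1. Control 3, control 4 and dnTCF4 1 together marked 10 members (31.2%), against 10.1% of other genes, and 6 of these had no peak in another library, namely Sox6, Tbx1, Tbx4, Tbx5, Tbx15 and Tbx21. The remaining 4 members, Sox10, Sox13, Sox18 and Tbx19 (12.5%), had peaks in 2 or more libraries of both groups, as did 5.0% of other genes. The counts fell for members and other genes alike without some libraries, to 0 members and 1.22% of other genes without control 3 and 0 and 1.24% without control 4. These falls to 0 members were fixed in advance, since control 1 and control 2 marked no member. Counts were 1 and 1.96% without dnTCF4 1, 2 and 2.29% without dnTCF4 3, and 3 and 4.67% without dnTCF4 4. Without control 1, control 2 or dnTCF4 2 the count stayed at 4 members. Apart from Tbr1, each marked member was marked in control 3.

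**Figure D2:**
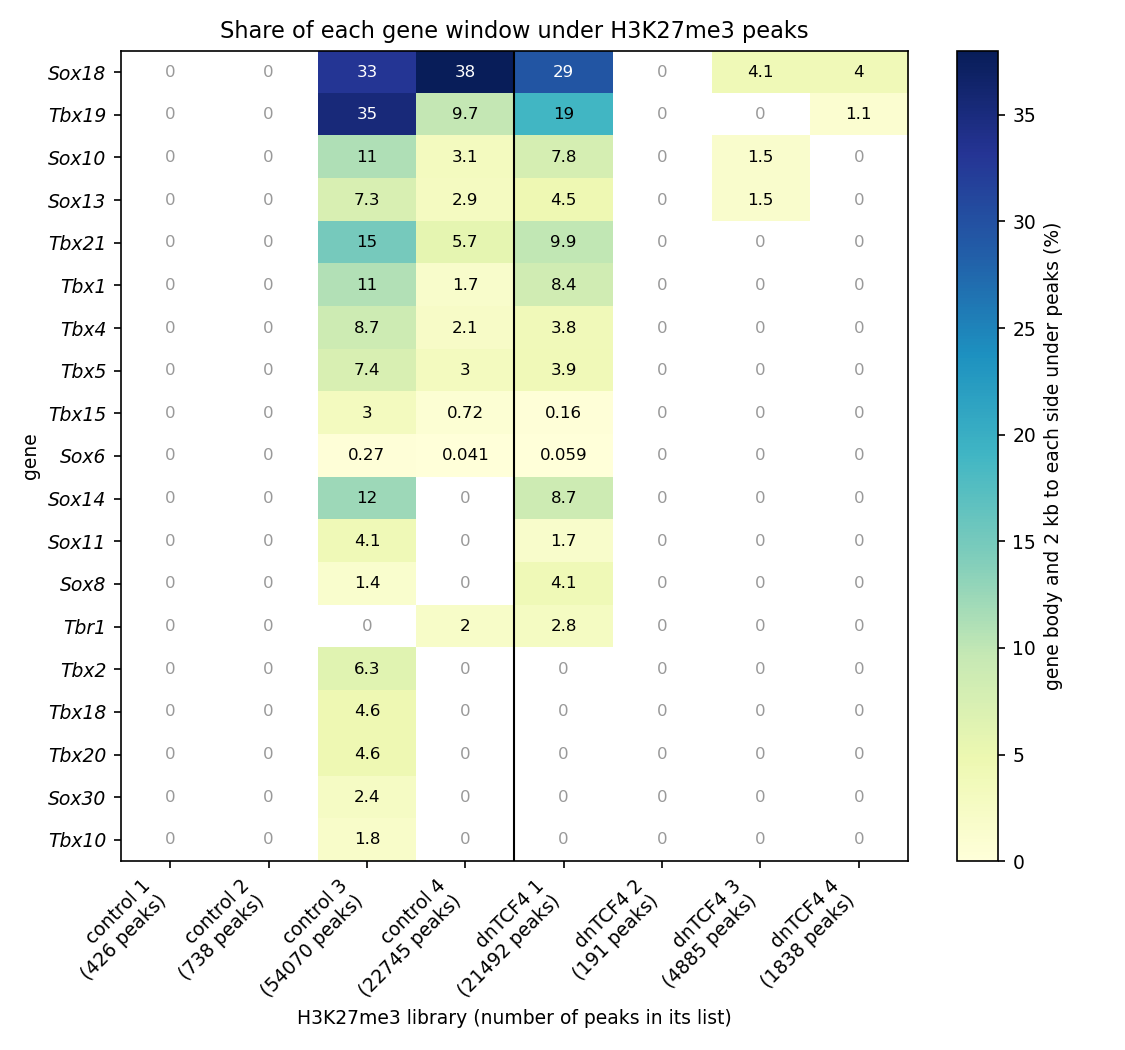
Percent of each gene's window (body and 2 kb to each side) under H3K27me3 peaks, for the 19 marked genes (rows) in 8 libraries (columns, with the number of peaks in each list). A 0 means no peak, the vertical line separates control from dnTCF4 libraries, and the filled cells lie almost all in control 3, control 4 and dnTCF4 1, with Sox18 and Tbx19 the darkest rows.

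Sox18, a regulator of endothelial and lymphatic vessel development, was the member marked in the most libraries. Its gene (chr2:181669837-181671640) is 1.80 kb long, and its window was covered to 0, 0, 33.0 and 37.8% in control 1 to 4 and to 29.4, 0, 4.12 and 3.98% in dnTCF4 1 to 4. The groups overlapped, with the 3 longest lists high in coverage and the other libraries low. In control 4 more of the window was covered than in 99.7% of other protein-coding genes. No peak touched the gene body. Here and below, a region is the union of overlapping peaks of the libraries, so a single peak can be much shorter. A region of 1714 bases on its left side in genome order (chr2:181667958-181669671) had a peak in control 3, control 4, dnTCF4 1, dnTCF4 3 and dnTCF4 4, and another of 938 bases on its right side (chr2:181672525-181673462) in control 3, control 4 and dnTCF4 1. The best peak had a fold enrichment over background of 3.80 in control 3 and 4.55 in dnTCF4 4, values that the authors' peak caller gave. The median fold over all peaks of these lists was 3.01 and 4.48. By −log10 q the best Sox18 peak ranked above 98.3% of the control 3 list and 47.6% of the dnTCF4 4 list. Of the other SoxF genes, Sox7 and Sox17 had no peak in any library.

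Among SoxE genes, which act in neural crest, glia and cartilage, Sox10 had the most coverage. Its window (gene at chr15:79154913-79164490) was covered to 0, 0, 11.0 and 3.06% in control and to 7.76, 0, 1.52 and 0% in dnTCF4 libraries. A region of 1038 bases that begins 0.252 kb beyond the right end of the gene (chr15:79164742-79165779) carried a peak in control 3, control 4, dnTCF4 1 and dnTCF4 3. Chromosome 15 as a whole was covered to 5.46% in control 3, against 2.00% of the annotated genome. Sox8 had a peak in each of control 3 and dnTCF4 1, at different places 1.87 and 1.64 kb outside the gene, which covered 1.44 and 4.08% of its window. Sox9, the chondrocyte and progenitor factor, was unmarked, and its nearest peak in any library lay 39.96 kb away.

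SoxD genes, which act in cartilage, neurons and lymphocytes, ranged from a member marked in 4 libraries to a member marked in none. Sox13 (chr1:133382300-133424459) was covered to 0, 0, 7.28 and 2.87% in control and to 4.46, 0, 1.52 and 0% in dnTCF4 libraries. The peaks flanked its start. A region of 7420 bases that begins 0.818 kb upstream (chr1:133425030-133432449) and a region 3.23 kb downstream (1081 bases) each had a peak in the same 4 libraries, and another region, 1.72 kb downstream, in 3 of them. The upstream peak was 7248 bases long in control 3 and 536 in dnTCF4 3. The upstream region runs past the 2 kb limit, and the body of Etnk2 also reaches into the window. Sox13 gave the highest-ranked peak of the SoxD genes, above 98.5% of the control 3 list by −log10 q, with a fold enrichment of 4.04. Sox6 (570 kb long) had 4 peaks in control 3 and 1 in each of control 4 and dnTCF4 1, which covered 0.271, 0.0408 and 0.0589% of its window. All but 1 of its 5 regions lay within 5 kb of an annotated start, and the exception lay 198 kb from the nearest. Sox5, the longest member at 954 kb, had no peak in any library, and the nearest lay 510 kb away. Of 225 other protein-coding genes with windows of at least 500 kb, 52.0% were marked in at least 1 library.

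Sox11, a neuronal SoxC factor, had a peak in control 3 and dnTCF4 1 that covered 4.104 and 1.74% of its window, 2.3 kb downstream of the start. No other peak lay within 100 kb to either side of that window in these libraries. The other SoxC genes, Sox4 and Sox12, were unmarked, with nearest peaks 1058 and 9.86 kb away. Of the SoxB2 genes, which act in neural differentiation, Sox14 was covered to 12.2% in control 3 and 8.72% in dnTCF4 1, and Sox21 was unmarked. Sox30, a testis factor of the SoxH group, had 3 peaks in control 3 alone, with 2.45% of its window covered.

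The SoxB1 genes Sox1 and Sox2, which maintain neural and pluripotent stem cells, were unmarked in all libraries, as were Sox4, Sox5, Sox7, Sox9, Sox12, Sox15, Sox17, Sox21, Tbx3, Tbx6 and Eomes. Some of these 13 genes lay near peaks and others far from any. Sox1 was just outside the 2 kb limit, with a control 3 peak 2.58 kb away, and Sox2 had a peak at 4.63 kb in control 3. Just inside the limit lay Tbx2, whose only peak was 1.14 kb from the gene, and Sox8. In contrast, Eomes, Sox17 and Sox21 had no peak of any library closer than 115, 157 and 150 kb. With windows extended by 5 kb, 22 members were marked, against 26.4% of other genes, the added ones being Sox1, Sox2 and Tbx3.

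Tbx19, which activates the Pomc gene in the pituitary, had the broadest coverage of the T-box genes. Its window (gene at chr1:165137834-165160773) was covered to 0, 0, 35.2 and 9.68% in control and to 18.9, 0, 0 and 1.06% in dnTCF4 libraries. In control 3 it held 9 peaks, and its coverage exceeded that of 98.3% of other genes. A region of 5482 bases in its body (chr1:165154791-165160272), 0.501 kb downstream of the start, had peaks in control 3, control 4, dnTCF4 1 and dnTCF4 4. No single peak spanned this region, and that of dnTCF4 4 was 286 bases long. An upstream region of 6428 bases, from 1.65 kb before the start, had peaks in control 3, control 4 and dnTCF4 1. The control 3 peak there was 6421 bases long and the control 4 peak 2153. The 100 kb on each side of the window were covered to 7.18% in control 3 and 2.91% in dnTCF4 1, below the window itself.

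Of the Tbr1 subfamily, which directs lymphocyte and cortical neuron fates, Tbx21 and Tbr1 were marked and Eomes was not. Tbx21, the T-bet factor of type 1 helper T cells (chr11:97098007-97115331), was covered to 0, 0, 14.9 and 5.69% in control and to 9.92% in dnTCF4 1. Its shared regions lay 0.855 kb upstream of the start and 14.0 kb downstream, near the far end of the gene. Tbr1 had a peak of 298 bases in control 4 and of 420 bases in dnTCF4 1 at the same place, 1.73 kb downstream of its start, and none in the longer list of control 3. These peaks covered 1.95 and 2.75% of its window.

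**Figure D3:**
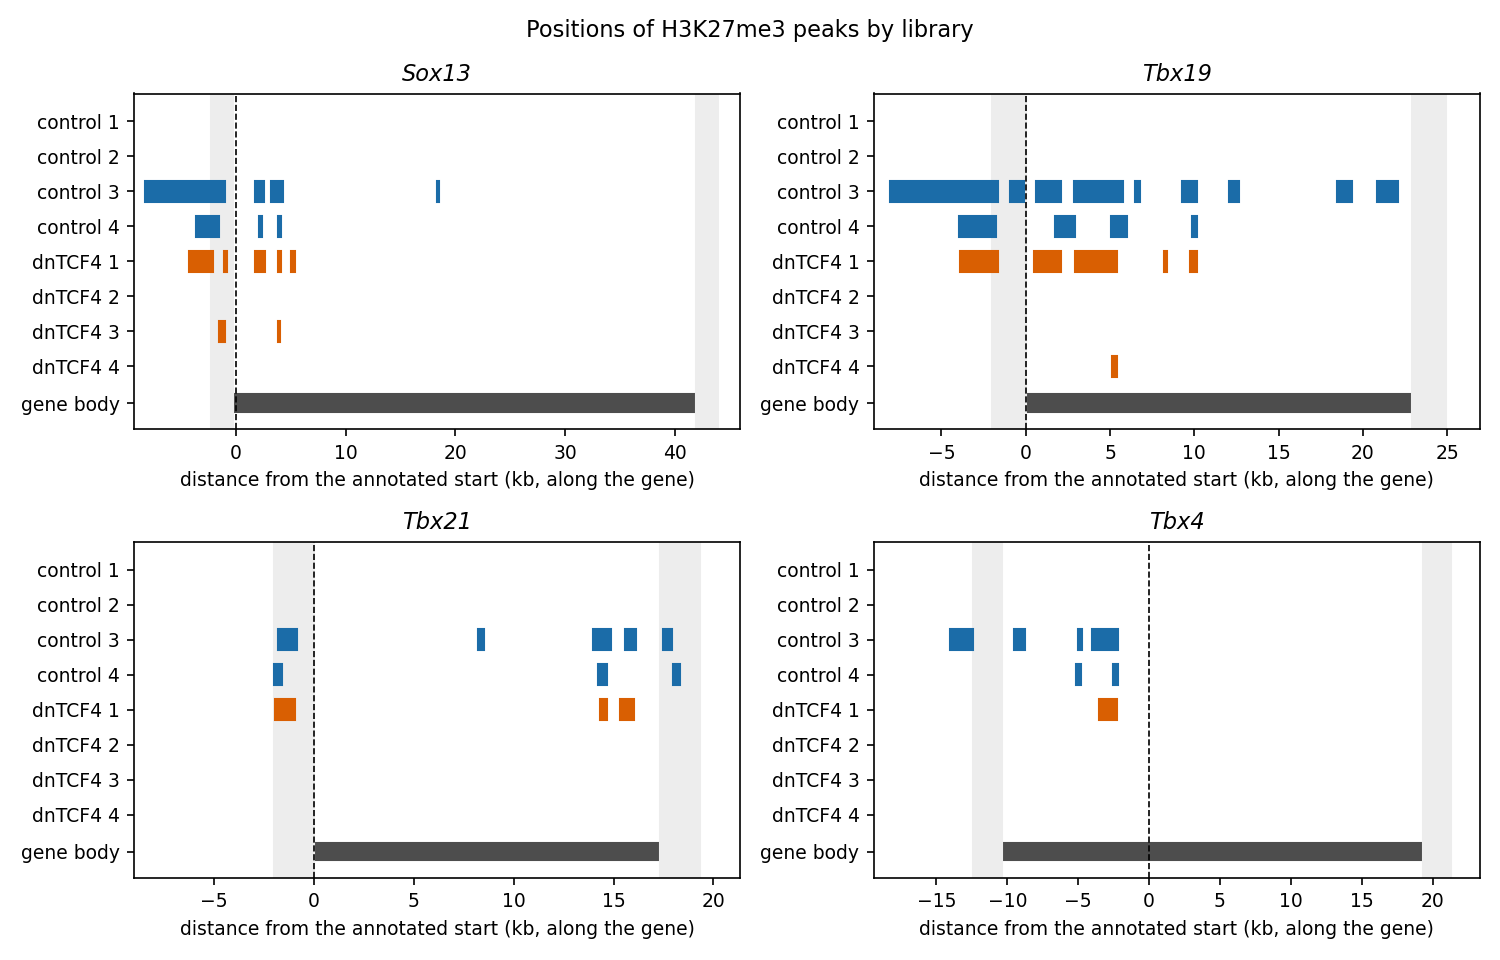
Positions of H3K27me3 peaks along Sox13, Tbx19, Tbx21 and Tbx4 in 8 libraries (rows; blue control, orange dnTCF4), as distance from the annotated start in kb along the gene, with the dark bar for the annotated body and grey bands for the 2 kb on each side. Some peaks of different libraries stack at the same positions, near the dashed start line or far from it, and others occur in a single library. Control 1, control 2 and dnTCF4 2 have none. At Tbx4 the dashed line lies inside the annotated body, and all peaks shown lie before it.

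Limb and heart T-box genes form tandem pairs in the genome, Tbx2 beside Tbx4 and Tbx3 beside Tbx5, and the gene named last in each pair was marked in more libraries. That gene also had the longer window, 33.7 kb at Tbx4 against 13.3 kb at Tbx2, and 92.7 kb at Tbx5 against 18.2 kb at Tbx3. The part of window length in this was not tested. Tbx5, needed for the forelimb and heart (chr5:119796514-119885220), was covered to 0, 0, 7.38 and 3.02% in control and to 3.92% in dnTCF4 1, with 11, 5 and 7 peaks in these libraries. Its 12 regions included 4 that had a peak in all 3 of control 3, control 4 and dnTCF4 1. Tbx3 was unmarked, with its nearest peak 4.98 kb away in dnTCF4 1. Tbx4, the hindlimb gene (chr11:85886367-85916097), was covered to 0, 0, 8.72 and 2.11% in control and to 3.78% in dnTCF4 1. Tbx2 had 1 peak of 836 bases, in control 3 only.

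The spaces between the paired genes held shared regions too. Between Tbx2 and Tbx4, a region of 1660 bases (chr11:85882708-85884367) had a peak in control 3, control 4, dnTCF4 1, dnTCF4 3 and dnTCF4 4, with fold enrichments from 3.05 to 5.65, the highest in dnTCF4 1. It ends 2.00 kb from Tbx4 and overlaps that window by 1 base, in control 3 only, where it outranks 99.5% of the list with a −log10 q of 4.44. With 5 kb on each side Tbx4 was marked in 2 control and 3 dnTCF4 libraries, like Sox18. Between Tbx3 and Tbx5, a region 3.29 kb from Tbx5 (chr5:119792150-119793227) and a region 31.0 kb from Tbx3 (chr5:119715751-119717896) had peaks in 4 libraries each.

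All 5 genes of the Tbx1 subfamily, regulators of pharyngeal, skeletal and heart development, were marked in at least 1 library. Of other genes 21.3% were, a share that rises with window length. Tbx10, Tbx18 and Tbx20 were marked only in control 3, the longest list. Tbx1, the pharyngeal arch gene (chr16:18580979-18590671), was covered to 0, 0, 10.8 and 1.68% in control and to 8.37% in dnTCF4 1. Tbx15, which acts in skeleton and fat, was covered to 3.03% in control 3, 0.719% in control 4 and 0.155% in dnTCF4 1, with 1 region of 1030 bases (chr3:99250193-99251222) shared by all 3. The heart genes Tbx18 and Tbx20 had 3 peaks each in control 3 and none elsewhere, with 4.57% of either window covered. Tbx10 had 1 peak of 199 bases in control 3. Its window also holds part of Nudt8.

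Within the 3 longest lists, peaks at these genes were close to other peaks in median fold enrichment and somewhat narrower. In control 3, the 68 member peaks had a median fold enrichment of 3.02 and a median width of 504.5 bases, against 3.01 and 595 for the other peaks. The values were 3.41 and 377 in control 4, against 3.39 and 471, and 3.45 and 424 in dnTCF4 1, against 3.495 and 485.5. Median −log10 q was slightly lower at members, 1.34, 1.42 and 1.29 in control 3, control 4 and dnTCF4 1, against 1.42, 1.48 and 1.35. When lists of the 5 longer libraries were cut to the 1838 peaks with the highest −log10 q, 5 members were marked in any of them (15.6%), against 6.14% of other genes. Control 3 then marked Sox13, Sox18 and Tbx4 (9.38%, against 2.92%) and control 4 marked none (against 2.81%). Tbx4 passed this cut only through the peak that overlaps its window by 1 base. DnTCF4 1 marked Sox13 and dnTCF4 3 marked Sox10 (3.12% each, against 3.12% and 2.55%), and dnTCF4 4 marked Sox18 and Tbx19 (6.25%, against 2.40%). At a −log10 q of at least 2, 9 members were marked, and at 5 none was, against 9.35% and 0.556% of other genes. Tbx4 was among the 9 only through the same overlap of 1 base.

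Covered length gives a different picture from counts of marked genes, since Sox5 and Sox6 hold most of the summed window length. Peaks covered 1.96% of all member windows in control 3, 0.581% in control 4 and 0.907% in dnTCF4 1, against 1.88, 0.606 and 0.653% of the windows of other genes. Among windows under 500 kb, which leaves 30 members, the values were 6.10, 1.84 and 2.88%, against 2.11, 0.696 and 0.760%. Of these 30 members 18 were marked in at least 1 library, against 21.0% of other genes. This limit on window length was chosen after the data were seen.

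Most regions with peaks at these genes were found in 1 library. The 19 marked members held 77 regions, each the union of overlapping peaks of the 8 libraries, with a median length of 516 bases. Of these, 47 had a peak in 1 library and 18 in at least 3, and 38 were found in control 3 alone. Among the 50 regions at genes with a given strand, 14 lay within 2 kb of an annotated start, including 1 over it at Sox6. Another 12 lay over 10 kb away. Such counts were not made for other genes, so they show no preference for or against starts. No region overlapped another protein-coding gene. A peak reached a 300-base promoter in any library for 2 of 23 members (8.70%), against 2.19% of other genes with a promoter sequence. Control 3 and dnTCF4 1 each reached 1 of the 23, against 1.90 and 0.812% of other genes. The lists of control 1, control 2, control 4, dnTCF4 2, dnTCF4 3 and dnTCF4 4 reached 0 of 23, against 0.0290, 0.0174, 0.643, 0.0116, 0.168 and 0.0232%.

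Promoters under a peak held fewer CG dinucleotides than others across the genome. Other genes' promoters under a peak held a median of 3 CG dinucleotides, against 13 for all other promoters. Peaks reached 0.250% of other promoters with 13 or more CG dinucleotides and 4.12% of those with under 7. Of the member promoters, 0 of 15 with 13 or more were reached, 0 of 7 with under 7, and 2 of 7 with 7 to 12, where 2.73% of other promoters were. Too few member promoters were reached to show such a relation among them. At Sox13, Tbx21 and Tbx1 the nearest peaks lay 0.818, 0.855 and 0.360 kb from a start. Member promoters as a whole had a median of 13, like those of other genes. Promoters were also searched on both strands for AACAAT and ACAAAG, which SOX proteins bind, for the T-box motif AGGTGTGA and for the TCF/LEF motif ATCAAAG, which shares its last 5 letters with ACAAAG. The motif AACAAT was found in 3 of 29 member promoters (Sox6, Tbr1 and Tbx19) and in 8.91% of other promoters. The motif ACAAAG was found in 8 of 29, of which 5 are alternative starts of Sox6 and the others belong to Sox2, Sox15 and Tbr1, and in 16.8% of other promoters. Of 29 member promoters 1, at Sox6, held ATCAAAG, against 3.25% of other promoters, and 0 held AGGTGTGA, against 1.17%. A match is a stretch of letters and not a shown binding site.

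**Figure D4:**
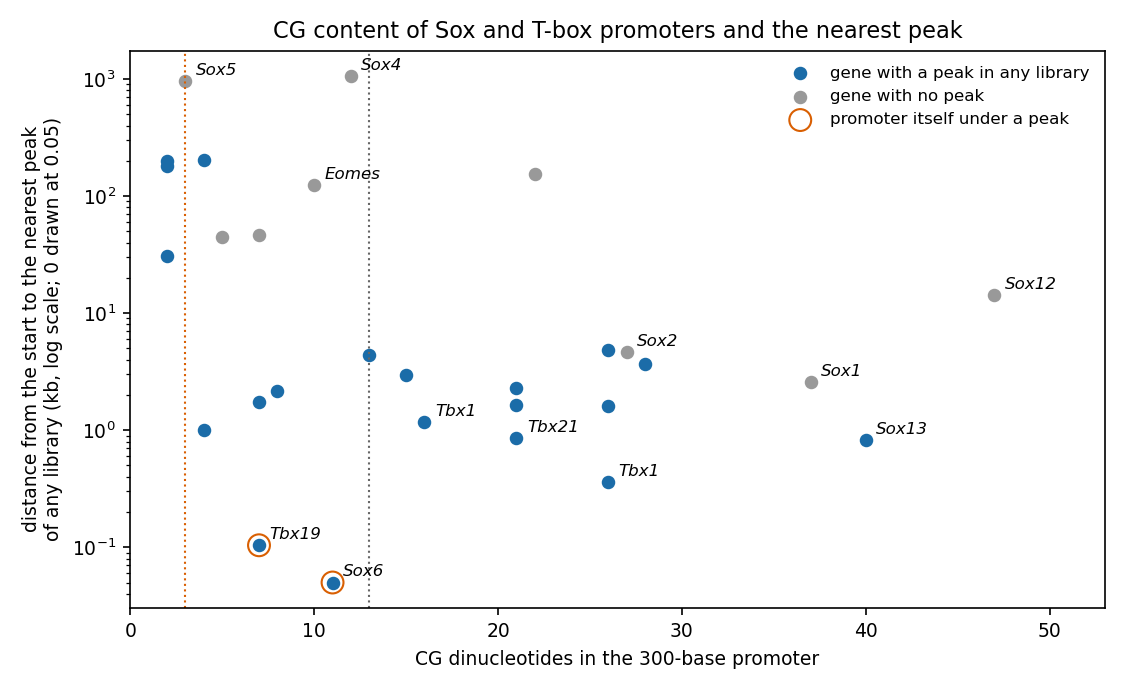
Number of CG dinucleotides in the 300-base promoters of 23 genes (horizontal axis) against the distance from the start to the nearest peak of any library (vertical axis, kb, log scale, 0 drawn at 0.05). Blue points are genes with a peak in the window and grey points genes without, dotted lines mark the median of all other promoters (grey, 13) and of other promoters under a peak (orange, 3), and the circled promoters under a peak, Tbx19 and Sox6, lie to the left of 13.

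No Sox or T-box gene passed a test of difference between control and dnTCF4 libraries. Fisher's exact test of marked against unmarked libraries (n = 4 each) gave p = 1 for all 32 members, and over all 21631 genes no call was made (0 genes with Benjamini-Hochberg adjusted p under 0.05, and likewise 0 before adjustment), so 0% of other genes were called. The exact permutation test of covered percent also gave 0 genes after adjustment, with 1 gene at an unadjusted p under 0.05 and a lowest member p of 0.429. With 4 libraries against 4 neither test can go below 0.0286, and no gene could pass after adjustment unless most genes reached that value. A p that misses the threshold does not show that the groups are alike. The share of members marked averaged 22.7 ± 27.6% (SD, n = 4) over control libraries and 14.8 ± 19.7% (SD, n = 4) over dnTCF4 libraries, and that of other genes 8.55 ± 9.40% and 5.36 ± 5.88%.

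No member had peaks in 2 or more libraries of a group and 0 of the other, where 2.00% of other genes were in the control direction and 0.0602% in the dnTCF4 direction. Without dnTCF4 1 there were 6 such members in the control direction, against 7.07% of other genes. The 5 members marked in control 3 alone (15.6%, against 5.50% of other genes marked in exactly 1 control and 0 dnTCF4 libraries) came from the list with the most peaks. In the dnTCF4 direction 0 members had a peak in exactly 1 library and none in control, against 0.949% of other genes. Sox18 was the only member marked in more dnTCF4 than control libraries, 3 against 2. With peaks of −log10 q of at least 2 it was marked in 2 control and 0 dnTCF4 libraries. Sox6, Tbx1, Tbx4, Tbx5, Tbx15 and Tbx21 were marked in 2 control and 1 dnTCF4 library.

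Genes that SOX and T-box proteins are known to control were counted in the same windows. Of 18 SOX target genes 8 were marked in at least 1 library, and of 13 T-box target genes 2, against 21.3% of other genes. Col2a1, the cartilage collagen that SOX9 activates, was covered to 0.761, 0, 17.8 and 9.63% in control and to 14.7, 0, 7.60 and 0% in dnTCF4 libraries. Reln, a TBR1 target, and Gja5, a TBX5 target, were the marked T-box targets, and Pomc, Ifng, Nppa and Mesp1 were unmarked. None of 10 PRC2 genes, Ezh2 among them, had a peak. Fisher's exact test called 0 genes of these lists, before or after adjustment. Peak lists hold no expression values, so the labelled cell type could not be checked by level. In at least 1 library 3 of 6 epithelial markers had a peak (Epcam in 8 libraries, Cdh1 in 3 and Krt19 in 1), 0 of 6 mesenchymal, 2 of 4 leukocyte (Cd3e in 4 and Ptprc in 3) and 2 of 4 endothelial markers (Kdr in 6 and Tek in 1), against 21.3% of other genes.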

How the data were processed

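H3K27me3 was profiled by ChIPmentation, in which a transposase adds adapters on the beads, after fixation in 1% formaldehyde, with 4 µg of antibody per the labels' protocols. The submitters' processing notes list MACS2 2.1.2, Bowtie2 2.3.4.1, cutadapt, Trim Galore, SAMtools 1.2, Picard 2.20.2 and bedtools 2.28.0, and name the build mm10. For their options, and any use of IgG as control, detail is not given in the sources used here. Peaks were called per library, since the deposited peak names carry it. The deposited fold enrichment is the authors' ratio per peak, the deposited −log10 p and −log10 q values are the authors' too, and the deposited score is 10 times the −log10 q as a whole number, except for 7 peaks. The lists hold no read counts, so depth and precision per library are unknown.

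Windows (RefSeq GRCm38.p6 genes), covered bases and tests were computed in Python 3.11.15 with SciPy 1.17.1. Fisher's exact test per gene was adjusted by the Benjamini-Hochberg method over all genes. Alternatives were other windows, overlaps, peak thresholds, equal list lengths, each library left out, and a replicate block. Full lists of libraries with at least 1000 peaks, and windows under 500 kb, were added after the data were seen. Promoters were to be printed for members under a peak and members without one, and that of Sox13 was added later. Code was tested on simulated data. The members, lists and rules were chosen with earlier results of these data known. Values are given for the members marked in the most libraries, those differing most between groups and the most covered of each subfamily, and all others are named.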

Additional observations from a re-analysis of the deposited data

Results flagged for a closer look

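In several groups of 4 libraries 1 library stood apart from the other 3 in the covered percent of a window by Dixon's 95% criterion, which chance alone meets in about 1 in 20 groups of continuous values. In 19 of these 23 cases the other 3 libraries were all at 0, which meets the criterion by construction, so that rate does not apply to them. The remaining cases also hold at least 1 library at 0, so the rate may not apply there either. In the control group this was control 3 for Sox6 (0.271%), Sox8 (1.44%), Sox11 (4.104%), Sox14 (12.2%), Sox30 (2.45%), Tbx1 (10.8%), Tbx2 (6.27%), Tbx10 (1.85%), Tbx18 (4.57%) and Tbx20 (4.57%), and control 4 for Tbr1 (1.95%). In the dnTCF4 group it was dnTCF4 1 for Sox6 (0.0589%), Sox8 (4.08%), Sox11 (1.74%), Sox14 (8.72%), Sox18 (29.4%), Tbx1 (8.37%), Tbx4 (3.78%), Tbx5 (3.92%), Tbx15 (0.155%), Tbx19 (18.9%), Tbx21 (9.92%) and Tbr1 (2.75%). Control 3 and dnTCF4 1 have the longest peak lists of their groups, with 54070 and 21492 peaks. The part of list length in these values was not tested.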

How the results depend on the processing

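The count of genes differing between groups stayed at 0 under every alternative run (20 of them, unadjusted p under 0.05 for 0 to 2 genes). These included the replicate block, a sign-flip test within same-numbered pairs whose smallest p is 0.125. With so few libraries no gene could pass after adjustment unless most genes reached the smallest p possible, and in some runs not even then. The count was thus nearly fixed in advance and does not show that the result is stable. Same-numbered libraries did not consistently deviate together (correlations of -0.679, 0.612, -0.0632 and -0.353), and differently numbered ones reached 0.683 (control 1 with dnTCF4 2). The numbers were not taken as pairs. Whether same-numbered libraries were handled together was not tested, and these correlations cannot tell. Shares of other genes in the same setting are given in parentheses. The 19 members marked in at least 1 library (21.3%) became 14 without control 3 (16.05%) and stayed at 19 without any other library. They became 9 with windows of 2 kb around annotated starts (of 23 members, 12.3%), 9 at a −log10 q of at least 2 (9.35%), 0 at 5 (0.556%) and 5 with equal lists (6.14%). At a −log10 q of at least 2 and with equal lists, Tbx4 was counted only through an overlap of 1 base. The 4 members with peaks in 2 or more libraries of both groups became 2 with no extension (4.04%), 7 with 5 kb (6.08%), 1 around starts (1.82%), 1 with at least 500 bases under peaks (2.72%), and 0 at a −log10 q of at least 2 (1.32%), at 5 (0.0509%) and with equal lists (1.06%). Leaving out 1 library at a time gave 0 to 4 of these. Members with peaks in 2 or more control libraries and no dnTCF4 library numbered 0 and became 1 with 5 kb (Tbx18, 2.36%), 1 with at least 500 bases (Tbx15, 1.65%) and 1 at a −log10 q of at least 2 (Sox18, 1.03%). Leaving out 1 library gave 0 to 6, the highest without dnTCF4 1 (7.07%). The excess of members over other genes averaged 14.1 ± 18.2 percentage points (SD, n = 4) over control and 9.49 ± 13.9 (SD, n = 4) over dnTCF4 libraries. It was 3.87 and -0.210 at a −log10 q of at least 2, -0.139 and -0.113 at 5, 1.82 and 1.48 with equal lists, 6.74 without control 3 and 2.62 without dnTCF4 1. Each SD exceeds its mean, so the spread between libraries does not show whether the excess is stable. The share of marked dnTCF4 minus control libraries turned to 25 for Sox6 with windows around both gene ends (-25 with gene bodies) and to -50 for Sox18 at a −log10 q of at least 2 (25 over all peaks). The cause was not tested.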
